A study of Mus musculus with 17 samples.

Results

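Mammary glands of mice labelled as over-expressing estrogen receptor alpha (CERM) were compared with wild-type (WT) glands, once in columns labelled single-end and once in columns labelled paired-end, to ask which differences appear in both read layouts. The CERM genotype combines an Esr1 transgene under a tetracycline operator (tet-op-Esr1) with rtTA, the tetracycline-responsive activator, driven by the MMTV promoter, which is active mainly in mammary epithelium and also in some other tissues. The WT mice carry neither change, and all mice are nulliparous C57Bl/6 females; their age, and any doxycycline given to them, are not stated in the sources used here. CERM is represented by 2 single-end and 3 paired-end libraries and WT by 2 single-end and 1 paired-end library, 8 of the 17 libraries of the series. The values are the authors' FPKM (fragments scaled by transcript length and by the total mapped), 1 pooled value per locus, genotype and layout, so 4 of the 8 columns of the table were used. Of its 30843 loci, 20420 carry 1 symbol that no other locus shares, and the 11689 of these that reach 1 FPKM in 2 or more of the 4 columns are the genes analysed.

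Estrogen receptor alpha is a nuclear receptor that, once bound by estrogen, acts at estrogen response elements in DNA. In the mammary gland it is made by hormone-sensing luminal cells, a minority of the epithelium, which signal to their neighbours through secreted factors such as amphiregulin and, downstream of the progesterone receptor, RANK ligand. The gland is mostly fat, stroma, vessels and immune cells in nulliparous animals, so RNA of the whole organ reports on many cell types at once. A lower value of a cell type's genes can come from fewer such cells or from less RNA per cell, and bulk RNA cannot tell these apart.

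With 1 pooled value per genotype and layout there was no spread between replicates, and no p-value could be computed for any difference given here. The protocol states that libraries were sequenced by both methods, so the layouts may share animals or libraries and are no independent replication of each other. Depth is unknown. The median gene was at 8.98 to 9.39 FPKM in the CERM columns and at 8.43 to 9.34 FPKM in the WT columns. In both WT columns about 2 in 3 of the values above 0 (66.7% single-end and 66.5% paired-end) carry at least 10 decimals, as means of 3 values do, against 0% in both CERM columns, although the labels give 2 and 1 WT libraries. Neither WT column can be a mean of 3 values that holds the other: 3 times the single-end WT value was below the paired-end WT value at 1087 of the 30843 loci, and the reverse held at 2775. The sources used here do not say which values were averaged. A value of 0 can be a failed estimate: Ncl, a nucleolar protein gene that every cell uses, was at 104 FPKM in CERM against 0 in WT in the single-end columns, and at 111 FPKM in CERM against 107 FPKM in WT in the paired-end ones.

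The transgene's own gene showed little difference. Esr1 was at 8.49 FPKM in CERM against 7.27 FPKM in WT in the single-end columns, and at 8.41 FPKM in CERM against 6.89 FPKM in WT in the paired-end columns. The ratios, 1.17 and 1.22, lay on the same side in both layouts but are small, so CERM is used here as the name on the label. Pgr, the progesterone receptor gene and a classic estrogen receptor target, was at 1.14 FPKM in CERM against 1.92 FPKM in WT single-end, and at 2.19 FPKM in CERM against 1.9 FPKM in WT paired-end, so the layouts put it on opposite sides. Tnfsf11, which encodes RANK ligand, was lower in CERM in both: 7.28 FPKM against 15.4 FPKM in WT single-end, and 5.86 FPKM against 13.2 FPKM in WT paired-end. Its log2 ratios of -0.99 and -1.05 stand on either side of the 2-fold line. Areg, the amphiregulin gene, was at 15.7 FPKM in CERM against 36.2 FPKM in WT single-end, but at 26.8 FPKM in CERM against 30.5 FPKM in WT paired-end. Greb1, another known target, stayed under 0.1 FPKM in all 4 columns, and Cyp19a1, the aromatase gene, was listed at 0 in all 4.

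All log2 ratios below are log2((CERM FPKM + 1)/(WT FPKM + 1)), a scale that understates the difference of low genes, and a gene was called when the 2 values lay at least 2-fold apart on it. In the single-end columns 426 of the 11689 genes (3.64%) were called higher in CERM and 109 (0.933%) lower. In the paired-end columns 448 (3.83%) were called higher and 104 (0.89%) lower. The calls in both layouts in the same direction were 134 higher (1.15%) and 52 lower (0.445%). The 134 higher genes make up 31.5% of the single-end and 29.9% of the paired-end higher calls, and the 52 lower genes 47.7% and 50%, so most higher calls of either layout were not made in the other. In opposite directions 6 genes (0.0513%) were called, all with microRNA, small nucleolar RNA or LOC names. With the nearest CERM and WT values of all 4 columns at least 2-fold apart, 108 genes (0.924%) were higher and 40 (0.342%) lower. Of the 134 higher genes 61 were below 1 FPKM in both WT columns, and of the 52 lower genes 13 were below it in both CERM columns; such genes passed the filter only through the genotype where they were high.

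The same genotype also differed from itself between layouts. CERM paired-end values were at least 2-fold above CERM single-end values at 189 genes (1.62%) and at least 2-fold below them at 99 (0.847%). For WT these counts were 70 (0.599%) and 121 (1.04%). The median absolute log2 ratio over all genes was 0.19 between the genotypes single-end and 0.20 paired-end, and 0.16 between the layouts within each genotype. The interquartile range was 0.37 and 0.41 between the genotypes, against 0.30 between the layouts in CERM and 0.19 in WT, where the whole distribution was shifted (median -0.13). The spread between genotypes was thus wider than that between layouts. The share of single-end calls made in both layouts was 73.4% among the 1292 genes with a mean below 2 FPKM and 16.4% among the 652 genes with a mean of at least 100 FPKM. A gene below 1 FPKM in 1 genotype enters only when both columns of the other reach it, so among low genes the filter itself favours agreement, and nothing is read from this share.

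**Figure D1:**
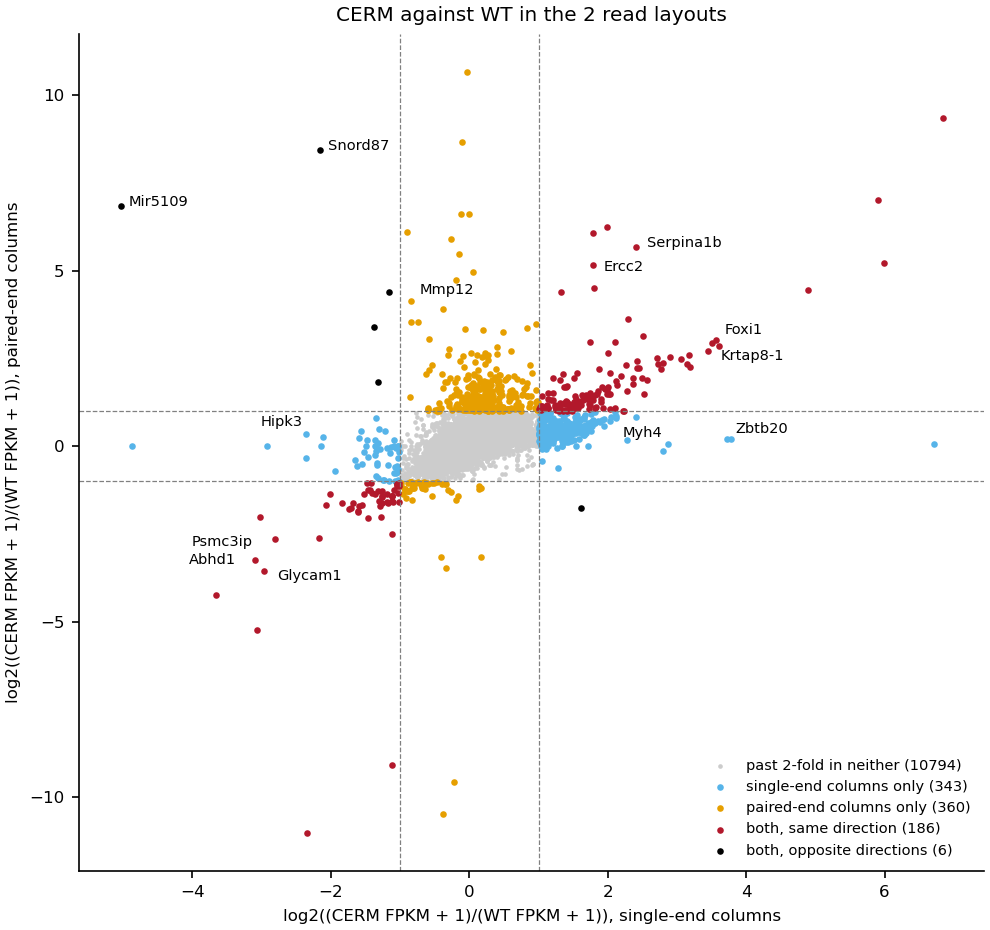
Each point is 1 of the 11689 genes, with its log2((CERM FPKM + 1)/(WT FPKM + 1)) in the single-end columns on the horizontal axis and in the paired-end columns on the vertical axis; dashed lines mark 2-fold, and colours mark genes called in neither, in 1 or in both layouts. The 134 genes higher in both sit at the upper right and the 52 lower in both at the lower left, while long arms along each axis hold genes such as Zbtb20 and Mmp12 that stood apart in 1 layout.

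Genes of the interferon response were higher in CERM in both layouts. Interferons induce these genes through Stat and Irf factors, which bind interferon-stimulated response elements, and the products restrict viruses and intracellular microbes. Of the 20 interferon-stimulated genes analysed, of 23 in the table, 9 were called higher in the single-end and 9 in the paired-end columns, and the same 9 stood in both; none was called lower. Oas2 passed the filter only through its CERM values. All 20 lay above 0 in both layouts, with median log2 ratios of 0.71 and 0.75, where the medians over all genes were -0.05 and 0.04. With the WT columns exchanged the medians of the list became 0.96 and 0.59. The summed FPKM of the 23 was 1070 in CERM against 771 in WT single-end, and 1230 in CERM against 763 in WT paired-end. Most of it was Ifi27l2a, a gene not called, at 777 FPKM in CERM against 609 FPKM in WT single-end and at 1008 FPKM in CERM against 632 FPKM in WT paired-end.

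Ifit1, whose antiviral product binds foreign RNA, was at 7.83 FPKM in CERM against 1.45 FPKM in WT single-end and at 5.18 FPKM in CERM against 1.22 FPKM in WT paired-end. Irf7, the factor that amplifies type I interferon production, was at 26.4 FPKM in CERM against 7.21 FPKM in WT single-end and at 17.3 FPKM in CERM against 5.78 FPKM in WT paired-end. In both genes the CERM values stood above both WT values, which naming genes called in both layouts favours. Ifit3 had log2 ratios of 1.54 and 1.34, Oas2, an RNA sensor, 1.31 and 1.24, and Oasl2 1.39 and 1.21. Ifi44, Rtp4 and Zbp1 were called in both as well. Not every member stood apart: Isg15, a ubiquitin-like modifier, had 0.67 and 0.66, Bst2, the tetherin gene, 0.27 and 0.17, and Cxcl10, an interferon-induced chemokine of another list, -0.04 and -0.10.

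The interferon-gamma-inducible GTPases, which attack vacuoles of intracellular microbes, were higher as well. Irgm2 was at 35.3 FPKM in CERM against 5.79 FPKM in WT single-end and at 25.4 FPKM in CERM against 4.59 FPKM in WT paired-end. Igtp was at 66.7 FPKM in CERM against 14.6 FPKM in WT single-end and at 42.7 FPKM in CERM against 11.1 FPKM in WT paired-end. Of the 8 genes of this list, 3 were called higher single-end (Igtp, Irgm2 and Irgm1) and 2 paired-end (Igtp and Irgm2), with medians of 0.96 and 0.82 and every member above 0 in both. With the WT columns exchanged these medians became 1.20 and 0.57. Gbp10, a guanylate-binding protein gene outside this list, was at 5.52 FPKM in CERM against 0.354 FPKM in WT single-end and at 5.63 FPKM in CERM against 0.321 FPKM in WT paired-end. Gbp10 passed the filter only through its CERM values. Of the 11 Gbp genes analysed 4 were called higher in both layouts, and those of this list were called in neither. Gbp and Irgm genes have close copies between which reads may be shared. The 7 listed antigen-presentation genes of MHC class I, which interferons are also known to induce, lay nearer 0. None of the 7 was called in either layout, with medians of 0.21 and 0.29, and Tap1, a peptide transporter gene, had 0.79 and 0.76. Outside the list and picked after their values were seen, the class I genes H2-Q8 (2.2 and 2.0) and H2-Q6 (1.32 and 4.4) were called higher in both. H2-Q1, another class I gene, had 1.28 single-end and -0.61 paired-end.

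Stretches from the promoters of 4 of these genes are shown because the interferon-stimulated response element can be read in them. They are RefSeq sequences of build GRCm38.p6, not of mm9 which the deposited table uses, written 5′ to 3′ on the gene's strand, and the capitals mark each exact match to GAAANNGAAA or to its reverse complement. The matches of Igtp and Irgm2, adjacent genes on chromosome 11, are the same 10 letters in closely similar surroundings and start 34 and 64 bases before the gene start. Ifit1 and Ifit3 on chromosome 19 have 2 matches each, all in the reverse orientation. Those of Ifit1 start 104 and 85 bases before the gene start and both stand in the stretch shown; those of Ifit3 start 156 and 122 bases before it, and the nearer one is shown.
Igtp, chr11:58199496-58199555, plus strand: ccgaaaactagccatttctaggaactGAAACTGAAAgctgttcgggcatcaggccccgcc
Irgm2, chr11:58214888-58214947, plus strand: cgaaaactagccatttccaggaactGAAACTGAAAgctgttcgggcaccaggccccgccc
Ifit1, chr19:34640760-34640819, plus strand: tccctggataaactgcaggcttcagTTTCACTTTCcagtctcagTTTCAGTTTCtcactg
Ifit3, chr19:34583382-34583441, plus strand: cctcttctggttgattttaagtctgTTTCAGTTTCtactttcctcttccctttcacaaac

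On either strand, this motif stands in 3.44% of the 32851 promoters of the table, each 250 bases before to 50 after a gene start, and in 3.05% of the 10593 promoters of genes analysed. Among the 107 promoters found for genes higher in both layouts it stands in 16 (15%), belonging to 15 of the 88 genes matched. The 35 promoters of the genes lower in both hold none. Of the interferon-stimulated genes 8 of the 14 matched have it, and of the GTPase genes 6 of 6. The palindromic estrogen response element, GGTCANNNTGACC, stands in 23 of all promoters (0.07%) and in 0 of the 10593 promoters of genes analysed. Promoters were found for 88 of the 134 genes higher in both layouts and for 31 of the 52 lower in both. The search says nothing on the other genes called or on sequence outside these promoters. A match is only a run of letters and no measure of binding, and the Irf7 window holds no exact match.

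Hair shaft genes stood far apart between the genotypes in both layouts. Keratin-associated proteins crosslink the hair keratins, and both are made in hair follicles of the skin. This list was chosen after the values were seen, and its 30 analysed genes all passed the filter through the CERM columns alone, so their calls add nothing as evidence. The summed FPKM of the 68 members in the table was 145 in CERM against 8.51 in WT single-end and 92.5 in CERM against 7.24 in WT paired-end. Krtap8-1 was at 17.5 FPKM in CERM against 0.629 FPKM in WT single-end and at 11 FPKM in CERM against 0.57 FPKM in WT paired-end. Krtap7-1 was at 18.6 FPKM in CERM against 0.795 FPKM in WT single-end and at 11.8 FPKM in CERM against 0.947 FPKM in WT paired-end. In the 30 genes the CERM values ran between 1.34 and 18.6 FPKM single-end and between 1.01 and 11.8 FPKM paired-end. Their WT values stayed between 0 and 0.795 FPKM single-end and between 0 and 0.947 FPKM paired-end. The filter itself kept these genotypes from overlapping in the 30 genes.

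Genes of the epidermis had no common direction. Krt77, a keratin of skin and sweat ducts, was at 0.00841 FPKM in CERM against 1.79 FPKM in WT single-end and at 0.00997 FPKM in CERM against 3.18 FPKM in WT paired-end. Krtdap, a keratinocyte differentiation gene, was at 3.14 FPKM in CERM against 9.04 FPKM in WT single-end and at 2.2 FPKM in CERM against 12 FPKM in WT paired-end. These were 2 of the 3 skin keratinocyte genes analysed, of 10 in the table, and the other one, Sprr1a, lay on opposite sides of 0 (-0.40 and 0.63). Krt77 passed the filter only through its WT values. Outside the list and picked after their values were seen, Cdsn, the corneodesmosin gene of the horny layer, was at 12 FPKM in CERM against 4.23 FPKM in WT single-end and at 20.3 FPKM in CERM against 4.81 FPKM in WT paired-end, and Hal, the histidase gene, had 1.55 and 2.08. The part of skin or hair follicles carried with the gland in these values was not tested.

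Genes of ion-transporting epithelial cells, which move protons and chloride in kidney, inner ear and airway, also stood apart. Some names with larger ratios, such as Gm4841 (4.9 and 4.47), were not ranked. Among the genes ranked by the smaller of their 2 log2 ratios, Foxi1, the forkhead factor that specifies such cells, came first. It was at 26.3 FPKM in CERM against 1.3 FPKM in WT single-end and at 19 FPKM in CERM against 1.45 FPKM in WT paired-end. Clic6, a chloride intracellular channel gene, was at 18.9 FPKM in CERM against 2.01 FPKM in WT single-end and at 15.1 FPKM in CERM against 2.15 FPKM in WT paired-end. Atp6v1b1, a proton pump subunit gene that Foxi1 is known to control in the kidney, was at 54.8 FPKM in CERM against 22.4 FPKM in WT single-end and at 38.1 FPKM in CERM against 18 FPKM in WT paired-end. In each of these 3 genes both CERM values lay above both WT values. They were named for being called in both layouts, which selects for this, so it adds nothing as evidence. The fourth of the 4 genes analysed, Atp6v0d2, had -0.84 single-end and 3.53 paired-end and stood instead with the macrophage genes below; 5 further members were under the filter.

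Other genes among the 14 highest have no common list. Of these, St6galnac1, Myoc and Serpina1b passed the filter only through their CERM values. St6galnac1, a sialyltransferase gene of mucin-type glycans, was at 6.55 FPKM in CERM against 0.00671 FPKM in WT single-end and at 5.02 FPKM in CERM against 0.0212 FPKM in WT paired-end. Cck, the cholecystokinin gene, was at 31 FPKM in CERM against 2.85 FPKM in WT single-end and at 25.4 FPKM in CERM against 3.72 FPKM in WT paired-end. Inmt, a methyltransferase gene of small amines, was at 35.3 FPKM in CERM against 5.74 FPKM in WT single-end and at 33.3 FPKM in CERM against 5.37 FPKM in WT paired-end. Its log2 ratio came to 2.43 in both. Myoc, which encodes the secreted glycoprotein myocilin, had 3.15 and 2.36. Serpina1b, a member of the nearly identical alpha-1 antitrypsin copies among which reads may be split, was at 5.78 FPKM in CERM single-end and 53.7 FPKM in CERM paired-end, against 0.272 FPKM in WT single-end and 0.0588 FPKM in WT paired-end. Among acute phase genes Saa1 (2.49 and 1.94) and Saa2 (1.47 and 1.07) were called higher in both, among neutrophil genes S100a9 (1.87 and 2.22), among cytotoxic lymphocyte genes the granzyme gene Gzma (1.12 and 1.17), among endothelial genes the lymphatic receptor gene Lyve1 (1.70 and 1.35) and among brown fat genes the fatty acid elongase gene Elovl3 (1.90 and 1.36). The lists behind these genes moved with them to unlike degrees. The 6 cytotoxic lymphocyte genes had medians of 0.76 and 0.49, with 5 of the 6 above 0 in each layout. Gzmb of this list passed the filter only through its CERM values. The 5 neutrophil genes had medians of 0.41 and 0.53, and the 8 acute phase genes 0.27 and 0.85. Other members went the other way. The acute phase gene Orm1 had -1.06 and -0.05, and Ucp1, the uncoupling protein gene of brown fat, 0.03 and -0.97. The neutrophil protease gene Prtn3, which passed the filter only through its WT values, had -0.87 and -1.27. Of the 7 brown fat genes 4 lay below 0 paired-end, and the 12 endothelial genes had medians of 0.10 and 0.16, the second just below 0 with the WT columns exchanged.

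Of the 16 immediate early genes, which respond within minutes to stimuli and to tissue handling, 3 were called higher single-end and 3 paired-end, and Nr4a1, a nuclear receptor gene, in both. Nr4a1 was at 49.4 FPKM in CERM against 7.73 FPKM in WT single-end and at 33.7 FPKM in CERM against 11.4 FPKM in WT paired-end. The medians were 0.68 and 0.64, and 16 members single-end and 14 paired-end lay above 0. Fosb, among those called single-end, passed the filter only through its CERM values. The mast cell list had similar medians in both layouts, 0.83 and 0.87, over 6 genes. Its protease gene Cma1 was at 56.4 FPKM in CERM against 27.9 FPKM in WT single-end and at 54.9 FPKM in CERM against 27 FPKM in WT paired-end, about 2-fold in each. Another member, Kit, lay on the other side of 0 (-0.18 and -0.15), and Fcer1a passed the filter only through its CERM values.

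**Figure D2:**
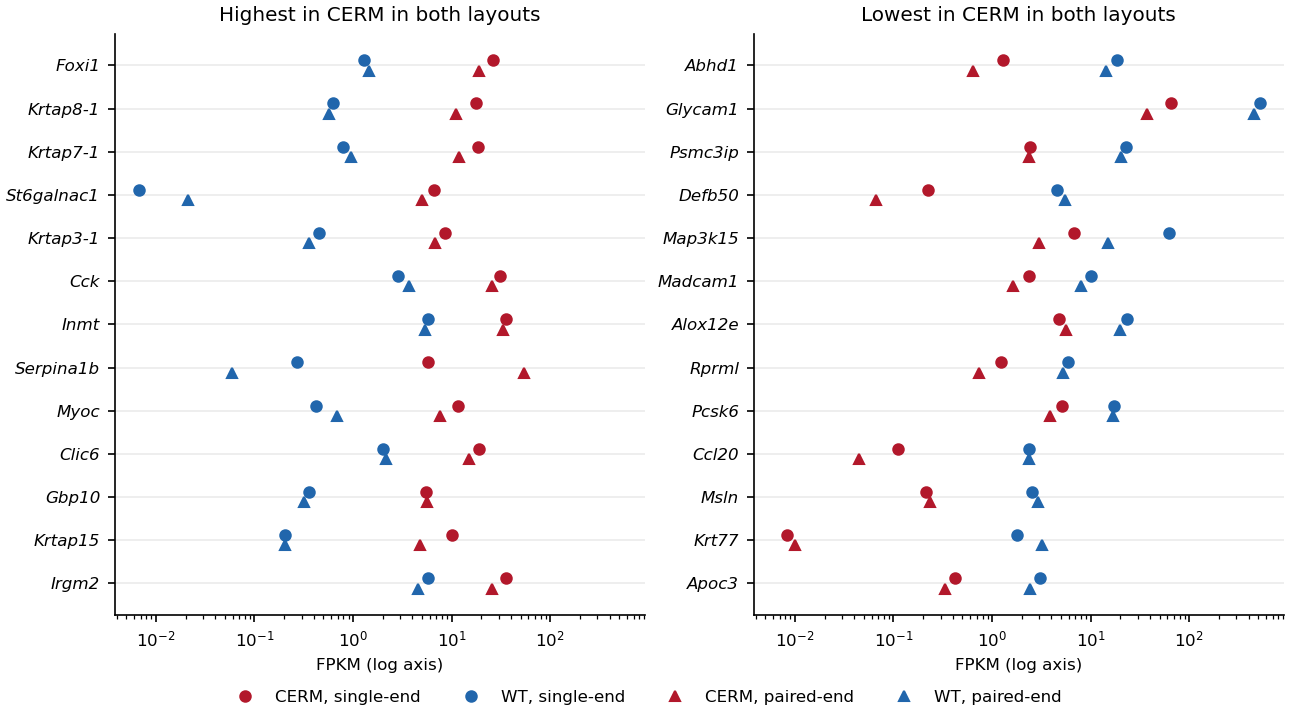
Points give FPKM on a log axis in each of the 4 columns (circles single-end, triangles paired-end, CERM red, WT blue). Drawn are 13 of the 14 highest and 13 of the 14 lowest ranked genes called in both layouts. They are ordered by the smaller of their 2 absolute log2 ratios. The 2 values of a genotype lie close together for most genes. The genotypes never overlap, but the genes were ranked for a large difference in both layouts, which selects for separation. Several passed the filter only through their higher genotype, which by itself keeps the genotypes from overlapping. The lack of overlap therefore adds nothing as evidence. Serpina1b, with 5.78 and 53.7 FPKM in CERM, has the widest gap within a genotype on the left.

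Among the genes lower in CERM in both layouts, those of high endothelial venules, the vessels through which lymphocytes enter lymph nodes, were far apart. Glycam1, a mucin-like ligand of the homing receptor L-selectin that is also secreted in milk, was at 65.5 FPKM in CERM against 518 FPKM in WT single-end and at 37.2 FPKM in CERM against 450 FPKM in WT paired-end. Madcam1, which guides lymphocytes into gut-associated lymphoid tissue, was at 2.36 FPKM in CERM against 10.2 FPKM in WT single-end and at 1.64 FPKM in CERM against 8.06 FPKM in WT paired-end. The third lymph node gene analysed, Cxcl13, the B cell chemokine, had 0.42 and 0.46 and did not follow them. Ccl20, the chemokine of the receptor Ccr6, was at 0.11 FPKM in CERM against 2.36 FPKM in WT single-end and at 0.045 FPKM in CERM against 2.37 FPKM in WT paired-end. Cd4, the helper T cell coreceptor, had -1.04 and -1.06, while the 10 T cell genes had medians of 0.09 and 0.14, of which the paired-end one turned below 0 (-0.07) when the WT columns were exchanged. Ccl20 and Cd4 passed the filter only through their WT values. How much lymph node each sample held was not tested.

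The further lowest genes belong to no single list. Abhd1 was at 1.28 FPKM in CERM against 18.5 FPKM in WT single-end and at 0.636 FPKM in CERM against 14.3 FPKM in WT paired-end. Psmc3ip, a cofactor of meiotic recombination, was at 2.4 FPKM in CERM against 22.7 FPKM in WT single-end and at 2.39 FPKM in CERM against 20.3 FPKM in WT paired-end. In both genes the 2 columns of a genotype lay much closer to each other than to the other genotype. The ranking for a large difference in both layouts selects for this. Map3k15, a kinase gene, was at 6.77 FPKM in CERM against 62.1 FPKM in WT single-end and at 2.97 FPKM in CERM against 15.1 FPKM in WT paired-end, so its WT values differed about 4-fold between layouts. Alox12e, an epidermal lipoxygenase gene, had -2.07 and -1.67, Pcsk6, a proprotein convertase gene, -1.60 and -1.86, and Msln, the mesothelin gene, -1.55 and -1.67. Defb50, Rprml and Apoc3 are also among the 14 lowest. Msln, Defb50 and Apoc3 passed the filter only through their WT values.

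Lipogenesis genes were lower in CERM throughout, and more so in the paired-end columns. All 11 genes lay below 0 in both layouts, with medians of -0.54 and -1.04, but the calls numbered 1 single-end and 6 paired-end. Scd1, the stearoyl-CoA desaturase gene, was called in both. It was at 3323 FPKM in CERM against 7561 FPKM in WT single-end and at 2477 FPKM in CERM against 6383 FPKM in WT paired-end. Elovl6, a fatty acid elongase gene, was at 80.2 FPKM in CERM against 143 FPKM in WT single-end and at 52 FPKM in CERM against 151 FPKM in WT paired-end. White adipocyte genes did not move with them: their medians were -0.13 and 0.04, of which the first turned to 0.06 with the WT columns exchanged and the second to -0.02 under median-ratio scaling and -0.08 under quantile normalization. Only Lep, the leptin gene, was called, at 252 FPKM in CERM against 54.2 FPKM in WT paired-end and at 95.8 FPKM in CERM against 73.4 FPKM in WT single-end.

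Luminal epithelial genes were somewhat lower in CERM, without a member past 2-fold. None of the 14 luminal epithelial genes was called, but all 14 lay below 0 single-end and 11 paired-end, with medians of -0.53 and -0.42. Cldn7, a tight junction gene, was at 20.1 FPKM in CERM against 38.3 FPKM in WT single-end and at 16.7 FPKM in CERM against 32.8 FPKM in WT paired-end. Krt18, a luminal keratin gene, lay on opposite sides in the layouts (-0.44 and 0.16). The 6 luminal progenitor genes had medians of -0.27 and -0.44 with no call; the first turned to 0.02 when the WT columns were exchanged. Among 9 basal genes Krt15 was called lower in both (-1.09 and -1.26), and Oxtr, the oxytocin receptor gene that contracts the myoepithelium, only single-end (-1.34 and -0.47). The rest of the basal list did not follow: 6 of the 9 lay above 0 paired-end, among them Acta2, the smooth muscle actin gene (-0.01 and 0.55), and Myh11 (0.46 and 0.46). The basal medians were -0.01 and 0.21, which became 0.30 and -0.09 with the WT columns exchanged and 0.03 for the first under median-ratio scaling.

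Of the 11 hormone-sensing luminal genes, Areg was called lower single-end, Tnfsf11 lower paired-end, and Cited1 and Prlr higher paired-end. Prlr, the prolactin receptor gene, was at 18.7 FPKM in CERM against 7.96 FPKM in WT paired-end but at 9.87 FPKM in CERM against 10.2 FPKM in WT single-end. Of the 13 estrogen response genes none was called in both layouts, and the medians lay on opposite sides, -0.45 and 0.14. Myc, a growth regulator in this list, was near 2-fold lower in both (-0.86 and -1.02). Of the 15 milk genes Glycam1 was called lower in both, Muc15 and Wap lower paired-end, and Csn1s2b, Btn1a1 and Lalba higher single-end. Among the caseins, Csn1s1, Csn1s2a, Csn2 and Csn3 were lower in both layouts without passing 2-fold, and Csn1s2b was higher (1.20 and 0.69). Csn2 was at 5500 FPKM in CERM against 6520 FPKM in WT single-end and at 3170 FPKM in CERM against 4832 FPKM in WT paired-end. Lalba, the alpha-lactalbumin gene, had 1.00 and 0.15, so the list had no single direction. The milk medians were -0.21 and -0.61, and the first turned to 0.19 with the WT columns exchanged. Of the 24 proliferation genes 23 lay below 0 single-end and 21 paired-end, with medians of -0.48 and -0.25, and Mcm6, a replication helicase gene, was the only call (-1.02 single-end, -0.33 paired-end).

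**Figure D3:**
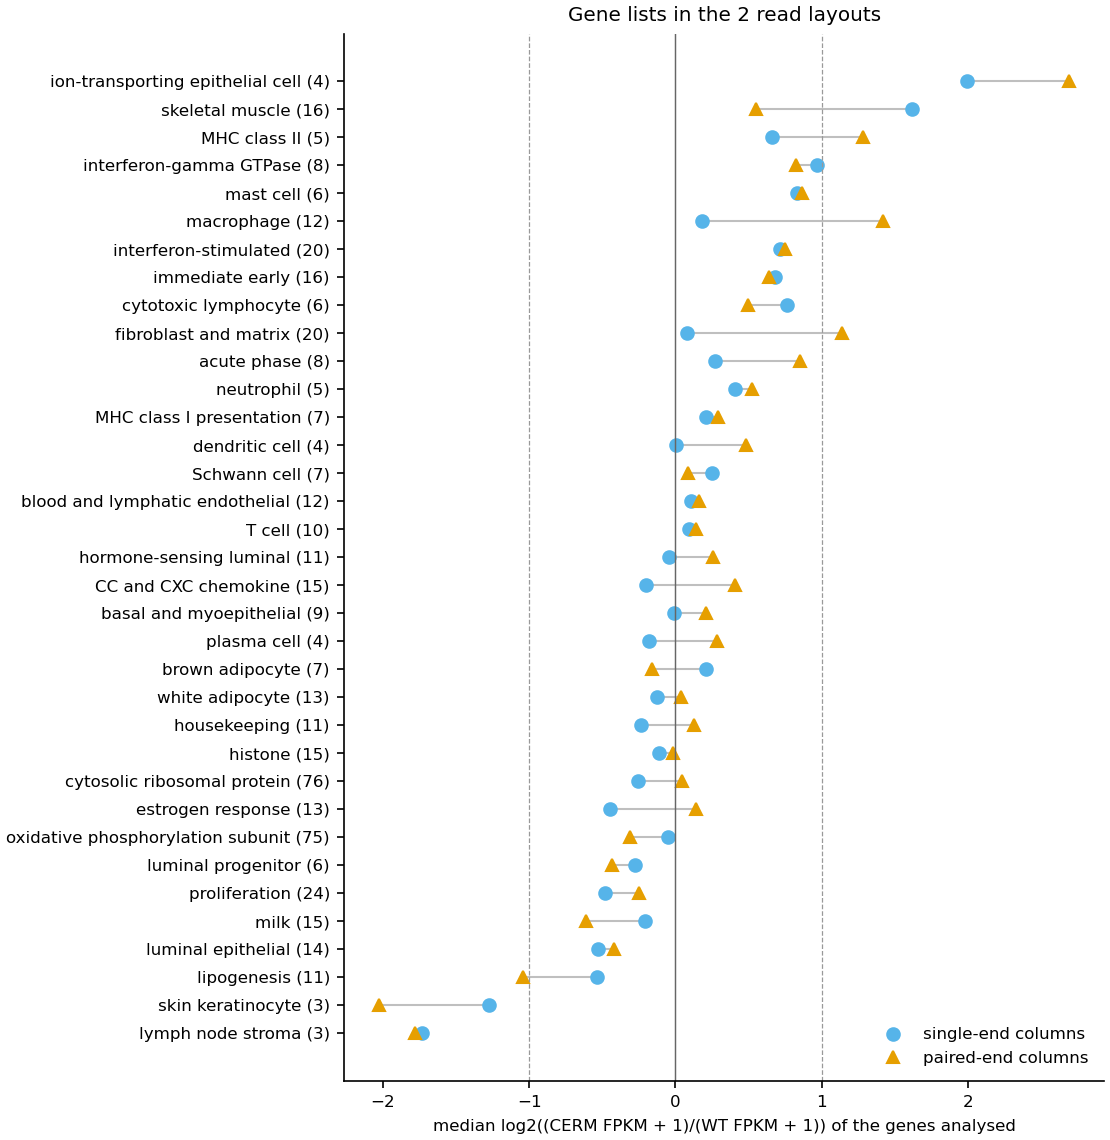
Median log2((CERM FPKM + 1)/(WT FPKM + 1)) of the analysed genes of each list (number of genes in parentheses) in the single-end columns (circles) and the paired-end columns (triangles); the solid line marks 0 and dashed lines 2-fold. Interferon-stimulated genes lie at 0.71 and 0.75, almost on top of each other (0.96 and 0.59 with the WT columns exchanged, not drawn). Skeletal muscle (1.62 and 0.55), macrophage (0.18 and 1.42) and matrix genes (0.08 and 1.14) lie far apart in the 2 layouts. Layout cannot be told apart from the libraries pooled in each column.

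Skeletal muscle genes differed between the layouts. In the single-end columns 15 of 16 were called higher, with a median of 1.62, and in the paired-end columns 1 of 16, with a median of 0.55. Myh4, a fast myosin heavy chain gene, was at 1692 FPKM in CERM against 387 FPKM in WT single-end and at 1232 FPKM in CERM against 675 FPKM in WT paired-end. Actn3, the fast-fibre actinin gene, was called in both, at 908 FPKM in CERM against 194 FPKM in WT single-end and at 658 FPKM in CERM against 328 FPKM in WT paired-end. Mb, the myoglobin gene, even changed sides (0.83 and -0.25). The summed FPKM of the list was 47656 in CERM against 15848 in WT single-end and 36393 in CERM against 25922 in WT paired-end. Both genotypes moved between layouts, in opposite directions: the median log2 ratio of paired-end over single-end was -0.43 in CERM and 0.74 in WT. With the WT columns exchanged the medians became 0.88 single-end and 1.20 paired-end, so the order of the layouts turned while the list stayed above 0. The part of muscle tissue carried with the gland in these values was not tested.

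Macrophage and matrix genes showed the reverse pattern and passed 2-fold in the paired-end columns but not in the single-end ones. Of the 12 macrophage genes none was called single-end and 10 paired-end, with medians of 0.18 and 1.42, while 10 of the 12 lay above 0 single-end too. Emr1, the F4/80 antigen gene, was at 25.6 FPKM in CERM against 3.6 FPKM in WT paired-end but at 6.44 FPKM in CERM against 5.54 FPKM in WT single-end. Tyrobp, an adaptor of myeloid receptors, was at 188 FPKM in CERM against 44.4 FPKM in WT paired-end but at 65.2 FPKM in CERM against 61.8 FPKM in WT single-end. In both genes the paired-end CERM value stood alone above the other 3. The median shift from single-end to paired-end was 0.97 in CERM and -0.43 in WT. With the WT columns exchanged the macrophage medians became 0.63 and 0.97.

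Of the 6 genes higher paired-end whose log2 ratios differed most between layouts, 5 are known from macrophages or osteoclasts. Mmp12, the macrophage metalloelastase gene, was at 85.8 FPKM in CERM against 3.88 FPKM in WT paired-end but at 2.38 FPKM in CERM against 5.06 FPKM in WT single-end. Gpnmb, a lysosomal glycoprotein gene, was at 102 FPKM in CERM against 7.76 FPKM in WT paired-end but at 5.14 FPKM in CERM against 9.28 FPKM in WT single-end. Atp6v0d2 (3.53), Trem2, a lipid receptor gene (3.05), and Ctsk, the cathepsin K gene (2.61), had these log2 ratios paired-end and -0.84, -0.59 and -0.31 single-end. Among other immune genes, S100a8 (3.39 paired-end, 0.84 single-end), the chemokine gene Ccl9 (2.84 and 0.40), Il7r (2.19 and 0.13) and Itgax (1.83 and -0.32) followed the same pattern. MHC class II genes were in between, with medians of 0.66 single-end and 1.28 paired-end: 1 of 5 was called single-end, 4 paired-end, and H2-DMa, a peptide-loading gene, in both (1.05 and 1.42). With the WT columns exchanged these medians became 1.28 and 0.70, so their order depends on the WT column. H2-Eb1 of this list had -0.09 single-end and 0.48 paired-end. Outside the list and picked after its values were seen, H2-Ea-ps, a class II locus whose symbol ends as a pseudogene's, was called lower in both (-3.66 and -4.24). The cause was not tested.

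Of the 20 fibroblast and matrix genes none was called single-end and 12 were called higher paired-end, with all 20 above 0 there and medians of 0.08 and 1.14. Col3a1, a fibrillar collagen gene, was at 351 FPKM in CERM against 125 FPKM in WT paired-end and at 219 FPKM in CERM against 224 FPKM in WT single-end. Postn, the periostin gene, was at 171 FPKM in CERM against 54.5 FPKM in WT paired-end and at 93.7 FPKM in CERM against 107 FPKM in WT single-end. For both genes the CERM value went up and the WT value went down with the change of layout. The list's summed FPKM was 3319 in CERM against 1322 in WT paired-end and 1923 in CERM against 1902 in WT single-end. With the WT columns exchanged, the matrix medians became 0.65 for CERM single-end and 0.55 for CERM paired-end, so the gap between the layouts rested on both genotypes.

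**Figure D4:**
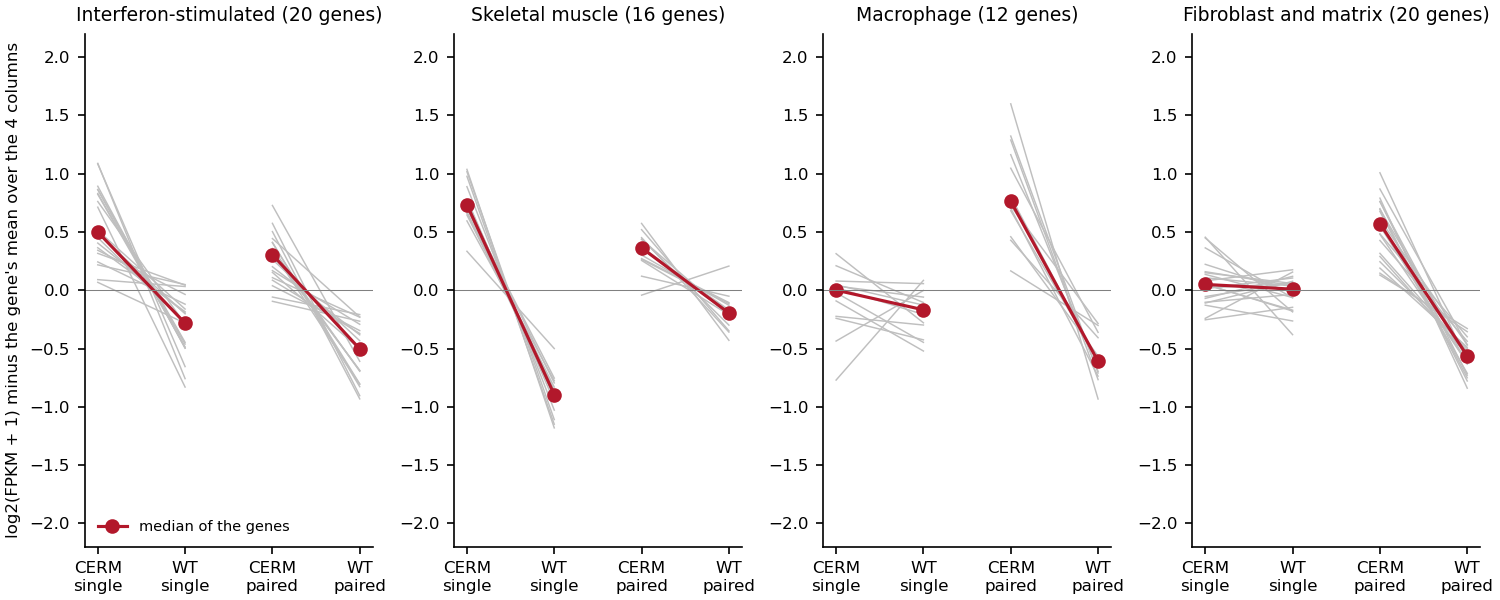
For 4 gene lists, log2(FPKM + 1) of each gene minus its mean over the 4 columns (grey lines join CERM and WT of 1 layout; red points are the medians of the genes). Interferon-stimulated genes step down between CERM and WT by similar amounts in both layouts, muscle genes mainly single-end, and macrophage and matrix genes paired-end.

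Over all genes, calls made in 1 layout differed in how they failed. Of the 292 genes called higher single-end and not paired-end, 279 lay above 0 paired-end too, 78 of them by at least 1.5-fold, and their median log2 ratio was 1.34 single-end and 0.45 paired-end. Of the 314 called higher paired-end and not single-end, 228 lay above 0 single-end, 41 of them by at least 1.5-fold, with medians of 1.34 paired-end and 0.18 single-end. In 239 of those 314 the 2 CERM values lay further apart than the 2 WT values, but in only 82 of the 292 called higher single-end. Of the 57 called lower single-end and not paired-end, 32 lay below 0 paired-end, with medians of -1.32 and -0.09; of the 52 called lower paired-end and not single-end, 47 lay below 0 single-end, with medians of -1.18 and -0.68. The 2 CERM values lay further apart than the 2 WT values in 20 of those 57 and in 45 of those 52. All these counts take in the 6 genes called in opposite directions.

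Single widely expressed genes also failed between layouts through 1 column. Zbtb20, a zinc finger repressor gene, was at 134 FPKM in CERM against 9.23 FPKM in WT single-end and at 4.38 FPKM in CERM against 3.66 FPKM in WT paired-end. Hipk3, a kinase gene, was at 28.3 FPKM in CERM against 149 FPKM in WT single-end and at 26.2 FPKM in CERM against 20.4 FPKM in WT paired-end, so its WT single-end value stood alone. Dgcr8, the microRNA processing gene, had the same form: 5.82 FPKM in CERM against 28.5 FPKM in WT single-end and 5.97 FPKM in CERM against 4.86 FPKM in WT paired-end. Tpt1, a translationally controlled protein gene, changed in both genotypes with the layout, at 10.3 FPKM in CERM against 11.8 FPKM in WT single-end and at 385 FPKM in CERM against 1107 FPKM in WT paired-end. Ndufs5, a subunit gene of respiratory complex I, was at 90.6 FPKM in CERM paired-end and between 4.92 and 7.98 FPKM in the other 3 columns. Large lists of widely expressed genes also leaned to 1 side in 1 layout: of the ribosomal protein genes 73 of 76 lay below 0 single-end and 30 paired-end, and of the oxidative phosphorylation genes 47 of 75 single-end and 69 paired-end. The 76 cytosolic ribosomal protein genes had medians of -0.26 and 0.04, which became 0.03 and -0.20 with the WT columns exchanged, the second also -0.01 under median-ratio and -0.02 under quantile scaling, and 75 oxidative phosphorylation genes had -0.05 and -0.31.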

How the data were processed

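RNA of mouse mammary glands was measured by sequencing polyadenylated RNA from TruSeq libraries, per the labels' protocols. The authors deposited FPKM values, 1 column per genotype and read layout, per the file headers. The submitters' processing notes name FastQC, Trim Galore, TopHat, Cufflinks and mm9. Their versions, the strand handling and how libraries were combined are not given in these sources. Steps between low values of different columns did not give whole reads, so depth and counting error are unknown.

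Values were compared as deposited. Loci without a symbol (8119), with several (585) or sharing one (1719) were left out, and 11689 genes reached 1 FPKM in 2 or more of the 4 columns; 11612 of these symbols were found in the reference tables. Log2 ratios used a pseudocount of 1 FPKM, and calls needed a log2 ratio of at least 1 in size. Limma fits, planned for the case of a column for each library, could not be run. No column of another series was present. Alternatives were other pseudocounts (0.1 and 5), other filters, median-ratio and quantile scaling, exchanged WT columns and calls at 3-fold.

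Genes named are Esr1, Pgr, Cyp19a1, Greb1, Areg and Tnfsf11; the 14 highest and 14 lowest called in both layouts, by the smaller log2 ratio in size; 6 per direction called in 1 layout that differed most between layouts; and up to 4 called members per list, with other list members given as examples, chosen after their values were seen, as were Ncl and the genes named in the closing observations. Genes listed at 0 in a column were not ranked. Names that start with Gm and a digit, Mir, Snor, Scarna or LOC were left out of the ranking too. So were names of AC, AI, AU, AW or BC and digits, and names with Rik or -ps at the end. Known genes are among these names. Of such names 35 were called in both layouts, among them BC018473 (log2 ratios of 6.0 and 5.24) and Gm4841 (4.9 and 4.47). Single genes that the rule names are in part not reported here. The 37 lists and these members were chosen with earlier results of these data known, and the hair list after its values were seen. The computation was tested on simulated data. Python 3.11.15, numpy 2.4.6, pandas 2.3.3 and matplotlib 3.10.9 were used.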

Additional observations from a re-analysis of the deposited data

Results flagged for a closer look

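The 6 genes called in opposite directions in the 2 layouts are given here because CERM lay above WT in one layout and below it in the other; the difference between layouts was not tested. Snord87, a small nucleolar RNA gene, was at 34.4 FPKM in CERM against 157 FPKM in WT single-end and at 348 FPKM in CERM against a listed 0 in WT paired-end, log2 ratios of -2.16 and 8.45. Mir5109, a microRNA gene, was listed at 0 in CERM against 31.9 FPKM in WT single-end and at 115 FPKM in CERM against a listed 0 in WT paired-end, log2 ratios of -5.04 and 6.86. Mir7-1 had -1.38 single-end and 3.40 paired-end, Snora33 -1.16 and 4.39, and Snora69 -1.31 and 1.83, and all were listed at 0 in WT paired-end. LOC100302567 was at 60.5 FPKM in CERM against 19.2 FPKM in WT single-end and at 62 FPKM in CERM against 212 FPKM in WT paired-end, log2 ratios of 1.61 and -1.75. Of the 79 genes analysed that were listed at 0 in some column, 55 carry small RNA names.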

How the results depend on the processing

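No paired analysis was possible because single libraries have no columns of their own, and replicates could not be left out for the same reason. Taking the paired-end WT value out of the single-end WT mean was not run, because the check of the column makeup did not allow it. With a pseudocount of 5 FPKM the calls were 210 higher and 51 lower single-end, 197 and 48 paired-end, 38 and 16 in both, and 35 and 9 apart in all 4 columns. With a pseudocount of 0.1 FPKM there were 185 lower single-end, 169 lower paired-end, 83 lower in both and 13 in opposite directions. A filter of 5 FPKM left 277 higher paired-end, 80 higher and 34 lower in both, and 65 and 25 apart in all 4. At 3-fold there were 140 and 29 single-end, 162 and 32 paired-end, 45 and 16 in both, 3 opposite, and 39 and 10 apart in all 4. With WT columns exchanged between layouts, 250 genes were lower paired-end and 110 went in opposite directions, while 108 of the 134 higher and 40 of the 52 lower genes were still called in both; this setting gives no value for all 4 columns apart and shifts the median of all genes by 0.13 and -0.12. Counting only named genes and sign changes with at least 1 value past 2-fold, it reversed the single-end ratio of Hipk3 (0.45), Dgcr8 (0.22), Wdr89 (-2.35) and Fam151a (1.52). On the same count it reversed the paired-end ratio of Hipk3 (-2.46), Dgcr8 (-2.08), Wdr89 (1.29), Tpt1 (4.91) and Tmem206 (0.43). Quantile normalization kept 98 of the 134 and 51 of the 52. Leaving out genes listed at 0, an alternative chosen after seeing the data, left 1 gene in opposite directions. The causes were not tested. The other counts stayed within 1.5 times those reported. Of 246 log2 ratios of named genes, 240 kept their side of the 2-fold line under median-ratio scaling, 236 under quantile normalization and 187 with WT columns exchanged. Changes of sign that stayed within 2-fold are counted among those kept.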

Other observations

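Several genes called higher in both layouts stand in no list above and were picked after their values were seen. Per1, a circadian clock gene, was at 23.3 FPKM in CERM against 5.44 FPKM in WT single-end and at 18.3 FPKM in CERM against 4.96 FPKM in WT paired-end. Tsc22d3, the glucocorticoid-induced leucine zipper gene, was at 94.5 FPKM in CERM against 36.3 FPKM in WT single-end and at 143 FPKM in CERM against 33.6 FPKM in WT paired-end. Ddit4 had log2 ratios of 1.22 and 1.51 and Sgk1, a kinase gene of sodium transport, 1.01 and 1.07. Scnn1b, a subunit gene of the epithelial sodium channel, had 1.56 and 1.19. Per2, a further clock gene, had 0.71 and 0.74 and Fkbp5, another glucocorticoid target, -0.06 and 0.66, so neither was called. The eosinophil granule gene Prg2 was at 3.48 FPKM in CERM against 0.113 FPKM in WT single-end and at 5.49 FPKM in CERM against 0.0347 FPKM in WT paired-end. Prg2 passed the filter only through its CERM values. Ear11, of the eosinophil-associated ribonuclease family with close copies, had 1.99 and 1.60.

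The columns of the other genotypes give a wider setting for the most distant genes. Krtap8-1 was at 17.5 FPKM in CERM single-end and 11 FPKM in CERM paired-end and at most 0.128 FPKM in the columns of AROM (an aromatase transgene) and BRCA (Brca1 and Trp53 alleles). Foxi1, at 26.3 and 19 FPKM in CERM, was at 4.54 and 2.89 FPKM in AROM and 5.87 and 5.54 FPKM in BRCA, single-end before paired-end. St6galnac1 reached at most 0.175 FPKM in those columns. Psmc3ip, at 2.4 and 2.39 FPKM in CERM, was low in BRCA too, at 4.65 and 3.57 FPKM, and at 23.1 and 20.5 FPKM in AROM. Glycam1, at 65.5 and 37.2 FPKM in CERM, was at 4.99 and 5.5 FPKM in AROM and 512 and 458 FPKM in BRCA. Mmp12 stayed between 1.69 and 5.18 FPKM in the columns of both other genotypes, so its 85.8 FPKM in CERM paired-end was the highest of the 8 columns.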
